A study of Mus musculus with 5 samples.

Results

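The 3 paralogs of the MYT1 family, Myt1, Myt1l and St18, rose to 136% to 152% of the control level in neuroblastoma cells depleted of UPF1, and Insm1, Sox4 and Sox11 rose to 147% to 183%, while Rest fell to 82.4%, a call that was lost without 1 of the control libraries, and Rcor1 was not called in either direction. These genes are part of a set of 10 transcription factors and cofactors of neuronal differentiation (Myt1, Myt1l, St18, Rest, Rcor1, Insm1, Sox4, Sox11, Neurod1 and Ebf1). The set was chosen by name, with earlier results of these data known, and found by gene symbol in a count table of 55573 genes. Each of the 10 symbols occurred once in the table.

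The cells were N2A (Neuro-2A), an established mouse neuroblastoma line. They received 60 pmol of a control siRNA bought as a negative control (siCtl, replicates 1 and 3) or of an siRNA against Upf1 (siUpf1, replicates 1, 2 and 3), and both groups were otherwise untreated cells of the same line grown in the same serum-containing medium. Polyadenylated RNA was sequenced in 2 siCtl and 3 siUpf1 libraries to find transcripts whose level depends on UPF1, the RNA helicase of nonsense-mediated mRNA decay (NMD). Assigned counts per library ran from 20402205 to 27717594. The study describes its western blots of this knockdown as representing 3 independent experiments. The labels do not say whether the replicate libraries came from separate cultures, so the p-values measure the spread between these libraries.

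The MYT1 family consists of zinc finger transcription factors of the nervous system, of which MYT1L is known to keep non-neuronal programmes silent in neurons. REST is the opposite kind of repressor: it binds RE1 elements and silences neuronal genes outside neurons, with RCOR1 (CoREST) as a scaffold for the histone deacetylases and the demethylase that it recruits. INSM1, the SoxC proteins SOX4 and SOX11, NEUROD1 and EBF1 are transcription factors that act as neural progenitors leave the cycle and become neurons. NMD removes transcripts with a stop codon read as premature, and features that can expose a transcript to it include a splice junction well after the stop codon, upstream open reading frames and a long 3′ untranslated region (3′ UTR).

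The sequences that bear on how these genes were perturbed and assayed are those of the siRNA, the only place in the 10 3′ UTRs that pairs with either of its seeds, and the primers with which the study later assayed Myt1. In the strands of the siRNA, capitals mark the seed (bases 2 to 8). In the Myt1 3′ UTR, capitals mark the 7 bases complementary to the seed of the antisense strand. The primers carry no capitals.
Upf1 siRNA, sense strand: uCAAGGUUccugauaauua
Upf1 siRNA, antisense strand: uAAUUAUCaggaaccuuga
Myt1 3′ UTR, exon 23: gaagaattttGATAATTtgggtttttc
Myt1 primer S, exon 19: atgcctctcacaggagtgct
Myt1 primer AS, exon 20: tttccagcaaaggttgctct

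The Myt1 3′ UTR window lies on the plus strand of GRCm38 at chr2:181827388-181827414, and its 7-mer begins 1354 bases after the stop codon. Of 12868 tested protein-coding genes, 7.6% had GATAATT in the representative 3′ UTR, of which 27.9% were higher and 27% lower in siUpf1, against 23.9% and 26.2% of the genes without it. The 7-mer for the other seed, AACCTTG, was in 9.75% of those 3′ UTRs, of which 21.7% were higher and 36.8% lower, against 24.5% and 25.1% of the genes without it, and in no representative transcript of the 10 genes. Ebf1 had GATAATT once in its coding sequence, and the full siRNA sequence matched Upf1 and none of the 10. Whether the siRNA acts on the Myt1 site was not tested. The Myt1 primers map to chr2:181820054-181820073 and chr2:181821948-181821967 in the coding region, and they were found in 7 and 6 of 12 annotated Myt1 transcripts. Gene-level counts add all of these transcripts together.

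The knockdown was visible in each library. Upf1 had 5217 and 5243 normalised read counts in siCtl and 2403, 2496 and 2449 in siUpf1, which is 46.8% of the siCtl level (log2 fold change −1.10, SE 0.0507, DESeq2 adjusted p = 7.27e-101). Across the transcriptome, DESeq2's Wald test with an adjusted p under 0.05 called 6810 of 15581 genes tested (43.7%), with 3335 higher (21.4%) and 3475 lower (22.3%). Of the 10 genes, 8 were tested, 6 were called higher and 1 lower, and the median log2 fold change of the 8 was 0.58. All 8 averaged 500 or more normalised counts over the libraries, and among all genes at that level 29.8% were called higher and 32.5% lower. The other 2, Neurod1 and Ebf1, had at most 10 counts in any library and were left out of the adjusted test by DESeq2's filter on low means. The libraries of the groups did not overlap for 8 of the 10 genes (all genes tested: 68.5%). These 8 were the 6 called higher, the 1 called lower and Neurod1, which is not among the genes tested. In 7 of these 8, Neurod1 among them, every siUpf1 library was above siCtl (33.8% of all genes tested), and in 1, Rest, every one was below (34.7%). With edgeR's quasi-likelihood test, which called 54.6% of its genes, the 10 genes again gave 6 higher and 1 lower. In RNA from whole cultures, fewer cells that express a gene and less RNA per cell cannot be told apart.

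**Figure D1:**
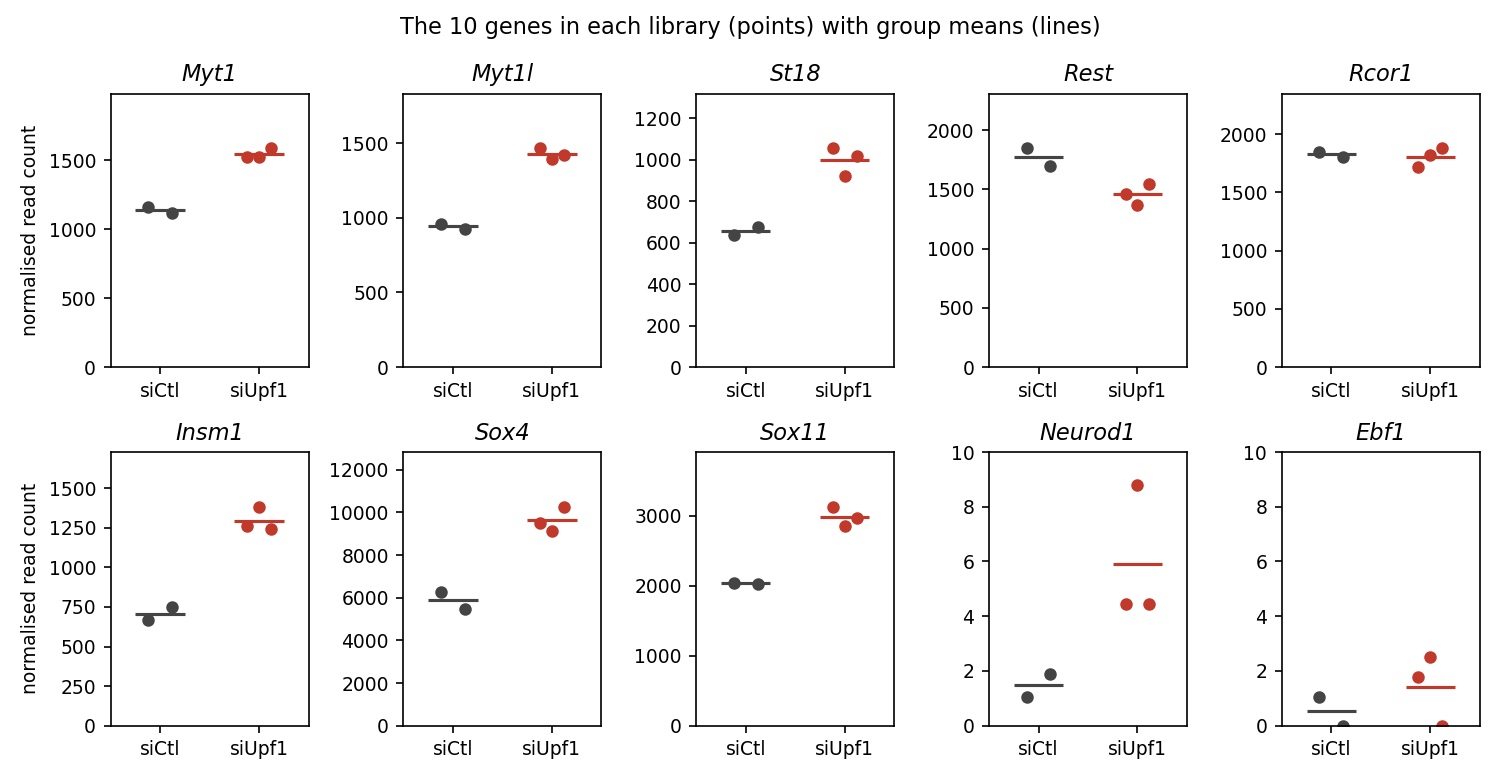
Normalised read counts (y axes, each from 0) of the 10 genes in 2 siCtl and 3 siUpf1 libraries (points), with lines at group means. The siUpf1 points of the MYT1 family, Insm1, Sox4 and Sox11 all lie above the siCtl points, those of Rest lie below, those of Rcor1 overlap, and Neurod1 and Ebf1 stay under 10 counts.

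Myt1 (ENSMUSG00000010505.16, chr2:181763332-181827797, plus strand) had 1160 and 1118 normalised counts in siCtl and 1526, 1522 and 1587 in siUpf1. The siUpf1 libraries lay within a narrow range and all were above siCtl. The means were 1139 ± 30.0 (SD, n = 2) and 1545 ± 36.1 (SD, n = 3), a log2 fold change of 0.44 (SE 0.0714, 95% interval 0.30 to 0.58, DESeq2 adjusted p = 5.32e-09). The study selected Myt1 for RT-qPCR among transcripts that rose in these libraries and were also enriched with phosphorylated UPF1. This increase is therefore not independent evidence about Myt1. Its rise was near the typical size for called genes, whose median absolute log2 fold change was 0.43, and 82.1% of all genes tested had a lower log2 fold change.

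Both paralogs, which had not been picked by the study for RT-qPCR, rose as well. Myt1l (ENSMUSG00000061911.15, chr12:29528384-29923213, plus strand) had 960 and 926 normalised counts in siCtl and 1465, 1392 and 1418 in siUpf1. There was no overlap between groups, and the means of 943 ± 23.9 and 1425 ± 36.9 gave a log2 fold change of 0.60 (SE 0.0752, 95% interval 0.45 to 0.74, DESeq2 adjusted p = 2.82e-14). St18 (ENSMUSG00000033740.17, chr1:6487231-6860940, plus strand), which is also known from pancreatic islet cells, had 637 and 677 normalised counts in siCtl and 1055, 921 and 1016 in siUpf1. Its siUpf1 libraries were more spread than those of Myt1 and still lay well above siCtl, with a log2 fold change of 0.60 (SE 0.0925, 95% interval 0.42 to 0.78, DESeq2 adjusted p = 5.69e-10). The intervals of all 3 paralogs overlap, and the differences between their fold changes were not tested.

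Because the paralogs encode related proteins, their levels were also compared per length, as normalised counts per kilobase of annotated exon. On that scale Myt1 was the most abundant, at 155 to 161 in siCtl and 212 to 221 in siUpf1. St18 followed at 98.6 to 105 and 143 to 163, and Myt1l was lowest at 66.1 to 68.5 and 99.3 to 104. The order Myt1, St18, Myt1l was the same in all 5 libraries with no overlap between neighbours within a group. The lengths used join the exons of all annotated transcripts. They are 7191 bases in Myt1, 6464 in St18 and 14018 in Myt1l, against 5509, 5892 and 7202 in the representative transcripts. The order of St18 and Myt1l therefore depends on the length used. All libraries share the same lengths, so their agreement does not settle it. Summed over the family, the level per kilobase was 328 and 326 in siCtl and 480, 454 and 479 in siUpf1, and the share of Myt1 in that sum was 49.1% and 47.6% in siCtl and 44.2%, 46.7% and 46.1% in siUpf1. The sum rose in each siUpf1 library, and the share of Myt1 was lower in each of them than in either siCtl library.

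Rest moved the other way. Rest (ENSMUSG00000029249.15, chr5:77265491-77286432, plus strand) had 1847 and 1696 normalised counts in siCtl and 1465, 1367 and 1547 in siUpf1. Each siUpf1 library was lower than either siCtl library, although the distance between the lowest siCtl and the highest siUpf1 library was no larger than the spread within either group. The means of 1772 ± 107 and 1459 ± 90.0 gave a log2 fold change of −0.28 (SE 0.0743, 95% interval −0.42 to −0.13, DESeq2 adjusted p = 0.000695). Without siCtl replicate 1 the log2 fold change was −0.22 and Rest was no longer called (DESeq2 adjusted p = 0.089), and the adjusted p over 12 alternatives ran from 0.000475 to 0.139. A log2 fold change below that of Rest was held by 24.4% of all genes tested.

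Rcor1 (ENSMUSG00000037896.17, chr12:111039351-111115901, plus strand), the scaffold of the REST complex, had 1848 and 1803 normalised counts in siCtl and 1721, 1817 and 1879 in siUpf1. The groups overlapped. The log2 fold change was −0.02 (SE 0.0664, DESeq2 adjusted p = 0.882), with a 95% interval of −0.15 to 0.11. Its sign was not stable, since it turned positive with total-count scaling (0.01) and without siUpf1 replicate 1 (0.02).

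Insm1, Sox4 and Sox11 rose, and each is a gene of 1 exon. Insm1 (ENSMUSG00000068154.5, chr2:146221921-146225020, plus strand), a zinc finger repressor of progenitor genes in neural and neuroendocrine cells, had 668 and 747 normalised counts in siCtl and 1260, 1383 and 1241 in siUpf1. These groups stood far apart, and the log2 fold change of 0.87 (SE 0.0875, 95% interval 0.70 to 1.04, DESeq2 adjusted p = 7.52e-22) was the highest of the 8 genes tested, above that of 94.1% of all genes tested.

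Sox4 (ENSMUSG00000076431.4, chr13:28948919-28953713, minus strand) had 6271 and 5492 normalised counts in siCtl and 9504, 9124 and 10264 in siUpf1. Its siUpf1 libraries were all far above siCtl. The log2 fold change was 0.71 (SE 0.0603, 95% interval 0.59 to 0.83, DESeq2 adjusted p = 1.28e-30). Sox11 (ENSMUSG00000063632.6, chr12:27334264-27342574, minus strand), the other SoxC gene, had 2042 and 2022 normalised counts in siCtl and 3129, 2850 and 2962 in siUpf1. Its siCtl libraries were nearly equal and its siUpf1 libraries all higher, with a log2 fold change of 0.55 (SE 0.0605, 95% interval 0.44 to 0.67, DESeq2 adjusted p = 1.02e-18). Per kilobase of exon the sum of Sox4 and Sox11 was 1553 and 1389 in siCtl and 2358, 2246 and 2497 in siUpf1, and Sox4 made up 82.5% to 85.7% of it in all libraries.

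Neurod1 and Ebf1 were close to undetected. Neurod1 (ENSMUSG00000034701.9, chr2:79452521-79456751, minus strand), a basic helix-loop-helix factor that drives neuronal differentiation, had 1 and 2 raw counts in siCtl and 5, 7 and 5 in siUpf1. Each siUpf1 library was above both siCtl libraries. Pooled over libraries and scaled by DESeq2's size factors, the ratio of siUpf1 to siCtl was 3.75 (17 against 3 counts, 95% interval 1.08 to 20, counting error only). Over the spread between libraries the increase was not called, with a DESeq2 log2 fold change of 1.97 (95% interval −0.58 to 4.52) that shrank to 0.19 in the shrunken fit, and an adjusted p of 0.394 when the filter on low means was left off. Ebf1 (ENSMUSG00000057098.14, chr11:44617317-45008091, plus strand), a helix-loop-helix factor of neurons and B cells, had 1 and 0 raw counts in siCtl and 2, 2 and 0 in siUpf1, at or under 3 counts in every library, so no fold is given. Without the filter its DESeq2 adjusted p was 0.95.

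**Figure D2:**
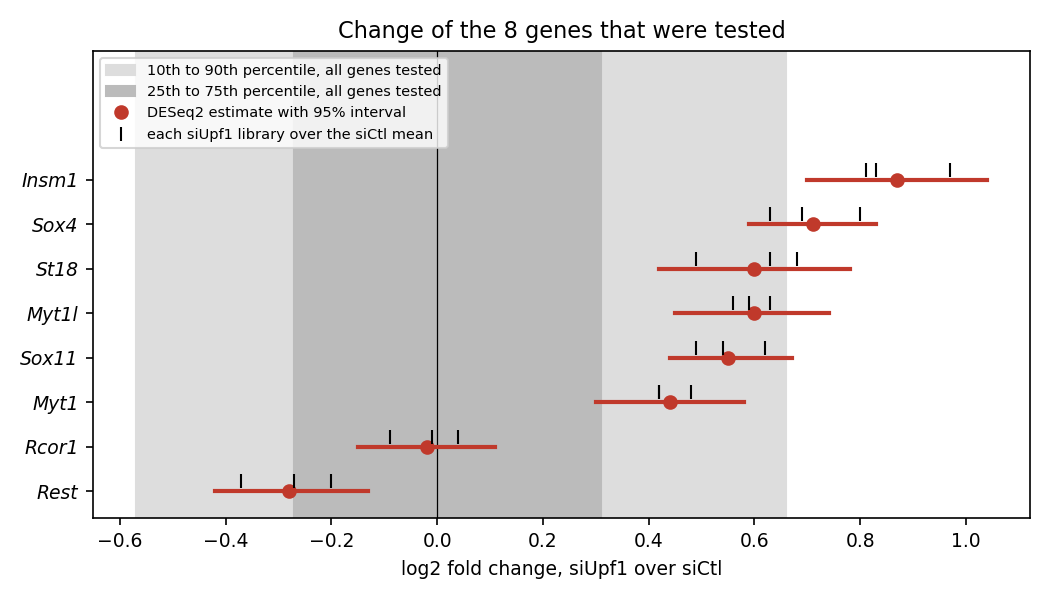
Log2 fold change of siUpf1 over siCtl (x axis) for the 8 genes tested: red points with bars are DESeq2 estimates with 95% intervals, black ticks each siUpf1 library over the siCtl mean, and grey bands the middle 50% and 80% of all genes tested. Insm1 (0.87) and Sox4 (0.71) lie past the 90th percentile of 0.66, the MYT1 family and Sox11 between the 75th (0.31) and the 90th, Rcor1 at −0.02 and Rest at −0.28.

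With Rest lower and most of the others higher, the balance between them shifted in each library. Per kilobase of exon, the order in siCtl was Sox4, Rcor1, Rest, Sox11, Insm1, Myt1, St18 and Myt1l, with Rest (235 to 256) overlapping both Sox11 (243 to 246) and Insm1 (215 to 241). In siUpf1 Insm1 (400 to 446) and Sox11 (343 to 376) stood above Rcor1 (303 to 331). Rest (189 to 214) came below Myt1 (212 to 221) in each siUpf1 library, although their ranges overlap. As with St18 and Myt1l, the place of Rcor1 in siUpf1 depends on the length used. Its annotated exons join to 5684 bases, against 2720 in its representative transcript. Neurod1, at 0.384 to 0.691 in siCtl and 1.63 to 3.22 in siUpf1, and Ebf1 stood far below all others.

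The ratio of Myt1 to Rest per kilobase was 0.631 and 0.662 in siCtl and 1.05, 1.12 and 1.03 in siUpf1, so that Myt1 RNA was the lower of the pair in each siCtl library and the higher in each siUpf1 library. The ratio of Insm1 to Rest was 0.842 and 1.03 in siCtl and 2.00, 2.36 and 1.87 in siUpf1. That of Sox11 to Rest was 0.961 and 1.04 in siCtl and 1.86, 1.81 and 1.66 in siUpf1. These ratios describe RNA, and they combine fold changes already given rather than adding a test.

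The structure of the genes was examined for the features tied to NMD. The MYT1 genes have many exons in their representative transcripts (23 in Myt1, 25 in Myt1l and 24 in St18), Rest has 4, Rcor1 12, Ebf1 16 and Neurod1 2. In none of the 10 representative transcripts did a splice junction follow the stop codon, and in Insm1, Sox4 and Sox11 there is no junction at all. The annotation marked 1 of 12 Myt1 transcripts and 1 of 13 St18 transcripts as NMD substrates and none of the other genes' transcripts. Among all tested coding genes, 23% of those with an annotated NMD transcript were higher and 28.9% lower, against 24.7% and 25.2% of those without.

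Genes of 1 exon as a class were more often higher than lower. Of 329 tested coding genes of 1 exon, 27.1% were higher and 6.08% lower in siUpf1, against 24.1% and 26.8% of 12539 genes with 2 or more exons. At 500 or more normalised counts on average, the level of Insm1, Sox4 and Sox11, the shares were 50.6% and 16.5% of 85 genes of 1 exon, against 29.6% and 32.7% of 7803 genes with more exons. The representative 3′ UTRs of the 10 genes were all longer than 1000 bases, from 1189 in Insm1 to 6957 in Sox11, which is longer than that of 98.9% of tested coding genes. Of genes with a 3′ UTR of at least 1000 bases 31.2% were higher and 23.1% lower, against 17.5% and 29.3% of genes with a shorter one. Rest, which fell, has a 3′ UTR of 3448 bases, longer than that of Myt1 (1724), Myt1l (2732) and St18 (2334), which rose.

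The representative 5′ UTRs of the MYT1 family held more upstream open reading frames than those of the other 7 genes. These, counted as an ATG followed by an in-frame stop codon within the representative 5′ UTR, numbered 7 in Myt1, 9 in Myt1l and 10 in St18. Of tested coding genes, 96.1%, 97.9% and 98.2% had fewer. The 5′ UTR of Myt1l is long, at 906 bases, and among 317 genes with a 5′ UTR of similar length (differing by a factor of at most 1.25) the median was 6 and 72.2% had fewer than Myt1l. For Myt1 (401 bases) and St18 (420 bases) the median of genes of similar length was 2, and 95.3% and 98.8% of these had fewer. The other 7 genes had 0 (Rcor1, Sox11), 1 (Rest, Neurod1), 2 (Insm1, Ebf1) or 3 (Sox4). Across coding genes, the share called higher was 21.5% with 0 upstream open reading frames, 25.5% with 1 to 2, 30.3% with 3 to 6 and 35.2% with 7 or more, and the share called lower went from 27.8% to 20.6%. The genes with 7 or more also had longer 3′ UTRs (median 1155 bases against 894 in genes with 0), and the part of either feature in the changes was not tested.

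**Figure D3:**
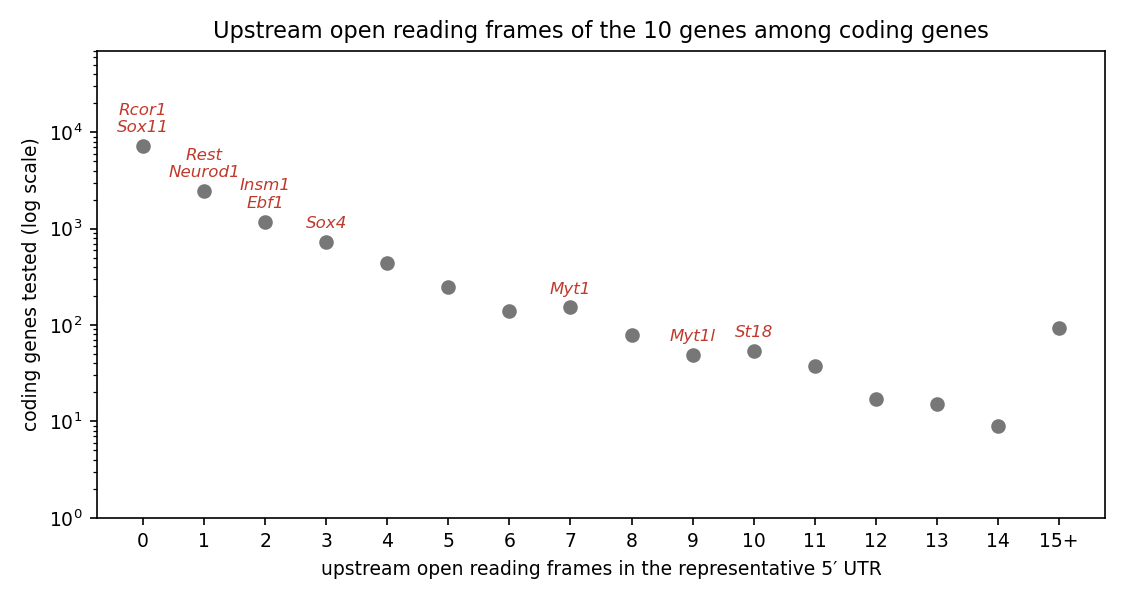
Number of tested coding genes (y axis, log scale) by the number of upstream open reading frames in their representative 5′ UTR (x axis), with the 10 genes written at their own number. Most genes are at 0 to 2, as are Rcor1, Sox11, Rest, Neurod1, Insm1 and Ebf1, while Myt1, Myt1l and St18 are at 7, 9 and 10.

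The genes whose pattern over the 5 libraries was most like that of Myt1, by Euclidean distance of log2 counts centred on the siCtl mean among 10962 genes averaging 100 or more normalised counts, were Zfp687 (distance 0.020), Mms19 (0.029), Zfp319 (0.035), Brat1 (0.038) and Slc4a8 (0.038). Of the other genes of the set, Sox11 (0.224), Myt1l (0.279) and St18 (0.324) were closest to Myt1, and Rest (1.250) was the farthest. With 5 libraries such distances mostly reflect the size of the change between groups.

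The neighbours of these genes in their pathways were described with lists of 115 genes in 5 groups, of which 88 were tested, 37 called higher (42%) and 15 lower (17%), beside 21.4% and 22.3% of all genes tested, with a median log2 fold change of 0.09. Among all genes averaging 500 or more normalised counts, 29.8% were called higher and 32.5% lower. The list results are counts, and no test of a list was made.

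Of 19 partners of REST, 8 were higher and 5 lower, and the median log2 fold change was 0.06. Without siCtl replicate 1 only 5 were higher. The highest was Srrm4, the splicing regulator known to favour a truncated REST isoform in neurons, at 1477 ± 128 normalised counts in siCtl and 2226 ± 201 in siUpf1, a log2 fold change of 0.59 with an SE of 0.0805 (DESeq2 adjusted p = 1.73e-12). Btrc, an F-box protein of the ubiquitin ligase that targets REST, was next (log2 fold change 0.57). Rcor2, the paralog of Rcor1, fell from 2796 ± 8.19 to 1687 ± 53.2, a log2 fold change of −0.73 with an SE of 0.0604 (DESeq2 adjusted p = 4.93e-32), and Rcor3 rose (0.24), so the CoREST paralogs did not move together. The phosphatase Ctdsp2 (−0.52) and the corepressor Sin3b (−0.39) also fell.

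Among 25 known or presumed REST targets, 22 were tested, 13 were higher (59.1%, all genes tested 21.4%) and 3 lower (13.6%, all genes tested 22.3%), and the median log2 fold change was 0.28. Most of those tested averaged 500 or more normalised counts, a level at which 29.8% of all genes were higher and 32.5% lower. The glutamate receptor subunit Gria2 went from 218 ± 6.23 to 673 ± 82.6 normalised counts (log2 fold change 1.63, DESeq2 adjusted p = 2.4e-33), the sodium channel Scn2a rose by 1.14 and the NMDA receptor subunit Grin1 by 0.88 on the log2 scale. The study assayed Gria2, like Myt1, by RT-qPCR in neurons cultured from mouse cortex, and Grin1 in cortex itself. It took them from targets that rose in these libraries and were also enriched with phosphorylated UPF1. Their increases here are therefore not independent evidence. The neuropeptide precursor Vgf fell from 14712 ± 319 to 10228 ± 733 (log2 fold change −0.53), and Syt4 (−0.25) and Stmn2 (−0.16) fell by less. The call of Stmn2 was lost without siCtl replicate 1 (DESeq2 adjusted p = 0.0621). A target list of this kind holds neuronal genes under many other controls, and its count does not measure the activity of REST.

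Promoters of these targets were searched on both strands, from 250 bases before to 50 after the start site, for TTCAGCACC, the left part of the RE1 element, and for its right part. The left part was found in 0.371% and the right part in 0.521% of 32851 RefSeq promoters of GRCm38.p6. RefSeq gave 27 promoters for 18 of the targets. Of these 27, 3 promoters of 3 different genes had the left part, and 1 of the 3 also had the right part. For the 10 genes RefSeq covered 7, and 0 of these had either part. The windows are shown because they are where the target list meets the sequence REST is known to bind, with the matched letters in capitals.
Unc13a, left part: ccatgtcgcTTCAGCACCgggggcgcg
Unc13a, right part: cgggggcgcGGACAGCGCCtgacgcgct
Celsr3, left part: ccagctccgTTCAGCACCgtgggcagc
Syn1, left part: actgtcggaTTCAGCACCgcggtcaga

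They lie at chr8:71671718-71671744 and chr8:71671735-71671762 (plus strand, Unc13a being on the minus strand), chr9:108825909-108825935 (plus strand) and chrX:20921133-20921159 (minus strand). Unc13a, a synaptic vesicle priming factor, rose by 0.26 (DESeq2 adjusted p = 5.36e-07), and Celsr3, an adhesion receptor of axon guidance, by 0.47 on the log2 scale (DESeq2 adjusted p = 2.18e-13). Syn1, a synaptic vesicle protein, had a log2 fold change of −0.04 (DESeq2 adjusted p = 0.758).

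Of 29 other neurogenic transcription factors, 12 were tested, 7 were higher and 0 lower by DESeq2 (0 lower also at an unadjusted p under 0.05 and by edgeR), and the median log2 fold change was 0.35. Onecut2 rose from 794 ± 29.4 to 1528 ± 122 normalised counts (log2 fold change 0.95), Scrt1 from 221 ± 15.1 to 423 ± 34.0 (0.93) and Tcf4, a partner of proneural factors, from 4081 ± 129 to 6659 ± 399 (0.71, DESeq2 adjusted p = 1.11e-35). Of the paralogs of the set on this list, Sox12, the remaining SoxC gene, rose by 0.53 and Ebf3 by 0.32 on the log2 scale, and Ebf4 (0.26, DESeq2 adjusted p = 0.332) was not called. Insm2, Neurod2 and Neurod6 had no read in any library.

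The 27 genes of the Notch pathway, its regulators and inhibitors of neurogenesis included 5 higher and 4 lower of 25 tested. The median log2 fold change was −0.13. Not all genes of this list inhibit neurogenesis, Numb and Hes6 among them, so a fall is not read as the loss of an inhibitor. The 5 became 2 without siCtl replicate 1, siCtl replicate 3, siUpf1 replicate 2 or siUpf1 replicate 3, and 3 without siUpf1 replicate 1. Hey1, a Notch effector, rose from 165 ± 7.41 to 414 ± 16.5 normalised counts, a log2 fold change of 1.33 with an SE of 0.144 (DESeq2 adjusted p = 5.21e-19). Hey2 (45.4 ± 19.8 to 80.1 ± 3.33, log2 fold change 0.81) lost its call without siCtl replicate 1 or any siUpf1 library, and Jag1 (84.9 ± 13.3 to 136 ± 16.3, 0.67) without siCtl replicate 3 or siUpf1 replicate 2 (DESeq2 adjusted p up to 0.422 and 0.209). Hes6 (−0.49), the adaptor Numb (−0.41) and the ubiquitin ligase Mib1 (−0.33) fell.

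Of 15 progenitor SOX and PAX factors and markers, 10 were tested, 4 were higher and 3 lower. Sox8 rose from 255 ± 4.9 to 485 ± 46.3 normalised counts (log2 fold change 0.93), and Sox6 (0.52) and Sox9 (0.34) also rose. The call of Sox9 was lost without siCtl replicate 1, siCtl replicate 3 or siUpf1 replicate 3 (DESeq2 adjusted p up to 0.0725). Vim, an intermediate filament of progenitors, fell from 17123 ± 287 to 13675 ± 395 (−0.32), and Msi1 fell by 0.22. Pax6 (−0.30) was called at a DESeq2 adjusted p of 0.0495, and this was lost whichever single library was left out.

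**Figure D4:**
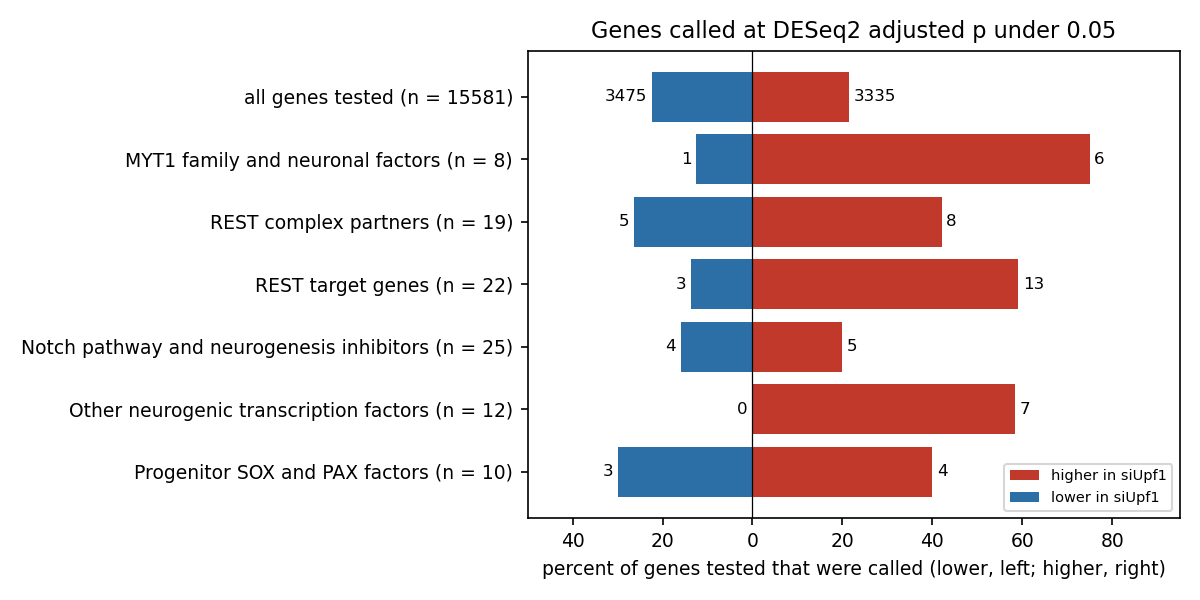
Percent of the tested genes of each list that were called higher (red, right) or lower (blue, left) in siUpf1, with the number of genes beside each bar. The MYT1 family and neuronal factors (6 and 1 of 8), REST targets (13 and 3 of 22) and other neurogenic factors (7 and 0 of 12) extend farthest to the right. REST partners (8 and 5 of 19) and progenitor factors (4 and 3 of 10) also extend past all genes tested (21.4% higher, 22.3% lower). Notch pathway genes (5 and 4 of 25) are near all genes tested.

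Markers of other cell types were measured beside these counts. Of 12 neuronal markers, 10 were tested, 7 of these were higher and 0 lower by DESeq2 (0 lower also at an unadjusted p under 0.05 and by edgeR). All marker counts here stand beside 21.4% higher and 22.3% lower of all genes tested. Among genes averaging 500 or more normalised counts the shares were 29.8% and 32.5%. The summed level per kilobase of the neuronal markers went from 4055 to 4075 in siCtl to 5866 to 5979 in siUpf1. They included Elavl2 (log2 fold change 1.17), Elavl4 (1.13), which the study had also selected for RT-qPCR, and Dbh (1.62), a catecholamine enzyme. Dcx, Nefl and Nefm were at 21 or fewer counts in all libraries, so N2A cells carried some but not all neuronal markers. The summed level of 11 glial markers was 73.1 to 74.9 in siCtl and 72.6 to 76.7 in siUpf1, with Olig1 and Mog at 0 and Aqp4, Olig2 and Sox10 at 2 counts or fewer. The astrocyte marker Aldh1l1, 1 of 4 glial markers tested, was called lower (34.1 ± 8.15 to 15.1 ± 5.4 normalised counts, DESeq2 adjusted p = 0.0425). The summed level of 8 leukocyte and mesenchymal markers was 74.4 to 74.9 and 58.4 to 60.4, with Col3a1 at 0. Pecam1, an endothelial adhesion molecule, was the 1 of 4 tested that was called, and it fell by 0.78 on the log2 scale (208 ± 9.12 to 121 ± 5.96 normalised counts, DESeq2 adjusted p = 0.000132). Their part in the other results was not tested.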

How the data were processed

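RNA-seq of 2 siCtl and 3 siUpf1 N2A libraries was analysed. The authors trimmed reads, aligned them to GRCm38.p6 with STAR (2.7.0f per the labels), counted reverse-strand reads in exons by featureCounts (Subread 1.6.4) and deposited raw counts per gene, unnormalised and not pooled. Total assigned counts are given in the report, and intervals on counts cover counting error only.

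From these counts DESeq2 1.42.0 (R 4.3.3) was fitted to all genes with the siRNA group as its term, its own size factors and filter on low means, and Benjamini-Hochberg adjustment. Genes were called at an adjusted p under 0.05. This design follows the study's methods. Normalised counts are counts divided by size factors, given as mean ± SD. With 2 against 3 libraries an exact permutation test of a single gene cannot reach 0.05, so none was made. Scripts were tested on simulated data. Alternatives were edgeR 4.0.16 (quasi-likelihood), TMM or total-count scaling, a minimum of 10 counts in 2 libraries, no independent filtering, a replicate block, shrunken fold changes, and omission of single libraries.

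Gene structures came from GENCODE M21 (same build; 99.7% of identifiers matched), with 1 representative coding transcript per gene, and promoters from RefSeq. The 10 genes and all lists were chosen with earlier results of these data known. Named were Upf1, the 10 genes, the 5 genes nearest to Myt1, and from each list the called genes with the 3 highest and 3 lowest log2 fold changes at a mean of at least 50 normalised counts. Cell type markers were named where their level describes the cells. Some genes under this rule are not reported here. Named outside this rule, after their values were seen, were Rcor3, Sox12, Ebf3, Insm2, Neurod2, Neurod6, Ebf4, and Unc13a, Celsr3 and Syn1 for their promoter match.

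Replicates of a group differed by more than sampling noise (chi-square per degree of freedom 5.22 to 21.1 within groups, 42.8 to 55.2 between groups), and each library was kept as a replicate.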

Additional observations from a re-analysis of the deposited data

How the results depend on the processing

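The 6 increases and the fall of Rest kept their direction in all 12 alternatives. The increases stayed called in each, with log2 fold changes of 0.41 to 0.46 (Myt1), 0.57 to 0.62 (Myt1l), 0.56 to 0.66 (St18), 0.79 to 0.95 (Insm1), 0.62 to 0.81 (Sox4) and 0.52 to 0.58 (Sox11). With edgeR, which called 54.6% of its 15368 genes, the counts were also 6 higher and 1 lower. Rest was between −0.34 and −0.22, and with libraries left out the number of the 10 genes called lower was 0 to 1. Rcor1, never called, was 0.01 with total-count scaling and −0.04 to 0.02 with libraries left out. Omission of single libraries left 2387 to 2949 higher calls and 2371 to 3125 lower calls over all genes, and 30 to 34 and 12 to 14 among the pathway list genes.

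Replicate numbers 1 and 3 occur in both groups, but same-numbered libraries did not deviate together (correlation −0.0861 and −0.0748 over 11898 genes), so the numbers were not taken to pair the libraries. A replicate block gave 1964 higher and 1971 lower calls over all genes, kept the 6 increases called, and called 0 of the 10 genes lower (Rest −0.23, DESeq2 adjusted p = 0.139). It called 25 of the pathway list genes higher and 8 lower. Of 31 list genes named, 24 kept call and direction in 11 alternatives each. The 2 siCtl libraries define the control spread poorly, and the few counts of Neurod1 and Ebf1 leave wide intervals.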

Other observations

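Proneural genes upstream of Neurod1 were close to absent from these libraries. Neurog1, Neurog3, Atoh1 and Sox2 had 0 counts in all 5 libraries, which allows up to 3 counts each per library, and the Notch effector Hes1 had 1 count in each siCtl library and 0 in each siUpf1 library. These genes were picked after their values were seen. Counting used strand, so genes on the other strand from Myt1l, Rcor1, Sox4, Neurod1 and Ebf1 were not added to them. Genes that overlap the gene bodies of Rest (Mir5098), Rcor1 (Gm48632) and Neurod1 (Cerkl) on the same strand were annotated. Whether their exons overlap, and how any shared reads were counted, was not examined.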
